A study of Mus musculus with 3 samples.

Results

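The genes that handle iron were followed across the cell types of mouse liver: the iron exporter ferroportin (Slc40a1), heme oxygenase 1 (Hmox1), the heavy and light ferritin chains (Fth1 and Ftl1), the transferrin receptor (Tfrc), the phagosomal metal transporter Nramp1 (Slc11a1), the hormone hepcidin (Hamp), the hemoglobin-haptoglobin receptor Cd163 and transferrin (Trf). The members were chosen by name, and all 9 of 9 were found among the 23860 genes that the 2 count tables list. The samples were liver cells captured on the BD Rhapsody platform, in 2 libraries with 1 library per group. The study's methods describe them as non-parenchymal cells, for which a slow spin and a density gradient serve to remove hepatocytes, while the sample labels speak of parenchymal cells, so the hepatocytes here are those left after that preparation, and the share of a gene's UMIs held by each class depends on it. The first, called the WT library here, is described by the study as wild-type C57BL/6J mice on normal chow diet (NCD), although its sample is titled MCD and the header of its table names the library APAP0h, so its diet is not certain. The second, called the HFHC pool, holds wild-type and Chil1-/- mice fed a high-fat, high-cholesterol (HFHC) diet together, and its table gives no genotype for a cell. Genotype, diet, capture and library therefore cannot be told apart, no difference between the libraries has a replicate check, and every interval below covers counting error only.

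Kupffer cells (KCs) line the sinusoids and clear old red blood cells. Hemoglobin is taken up by Cd163 or inside engulfed red cells, Hmox1 opens the heme ring to free the iron, Slc11a1 moves metal out of the phagosome, ferritin stores it and ferroportin returns it to the blood. Transferrin made by hepatocytes carries iron in plasma to cells that bear Tfrc. Hepcidin, a hepatocyte hormone made under the control of bone morphogenetic proteins (BMPs) from endothelial cells, binds ferroportin and has it degraded.

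Iron also acts on several of these mRNAs through the iron-responsive element (IRE), a short hairpin bound by the iron regulatory proteins when iron is scarce. In the 5′ untranslated region (UTR) the bound protein holds back translation, and in the 3′ UTR of Tfrc it protects the mRNA from decay. The hairpins are shown because their place in the mRNA sets whether the bound protein acts on translation or on mRNA decay. A search of GENCODE M21 transcripts on GRCm38 for CNNNNNCAGTGN, with 5 paired bases around the loop, found them in 4 of the 9 members, and the 6 loop bases are in capitals. The 5′ UTR sites lie in exon 1 of Slc40a1 (chr1:45925465-45925493, minus strand), exon 1 of Fth1 (chr19:9982732-9982760, plus strand) and exon 1 of Ftl1 (chr7:45459779-45459807, minus strand).
Slc40a1 5′ UTR: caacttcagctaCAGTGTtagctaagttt
Fth1 5′ UTR: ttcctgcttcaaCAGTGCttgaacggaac
Ftl1 5′ UTR: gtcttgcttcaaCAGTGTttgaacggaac
Tfrc carried 4 such hairpins in the 3′ UTR of its last exon, exon 19 of 19, at chr16:32631219-32631247, chr16:32631598-32631626, chr16:32631663-32631691 and chr16:32631710-32631738 on the plus strand.
Tfrc 3′ UTR hairpin 1: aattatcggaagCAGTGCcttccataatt
Tfrc 3′ UTR hairpin 2: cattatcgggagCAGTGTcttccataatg
Tfrc 3′ UTR hairpin 3: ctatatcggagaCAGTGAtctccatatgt
Tfrc 3′ UTR hairpin 4: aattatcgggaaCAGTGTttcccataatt
The same search, on the transcript strand only, found a match in the 5′ UTR of 31 of 20899 genes (0.148%) and in the 3′ UTR of 129 of 21028 genes (0.613%). A match describes the letters and was not tested for binding. Ftl1-ps1, a near-identical copy of Ftl1, is annotated as a separate gene at chr13:74399694-74407346, and the split of reads between Ftl1 and Ftl1-ps1 was not tested. Nor was it tested for Hamp and its neighbour Hamp2 (chr7:30922372-30924681).

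The WT library listed 30734 cells with 53720863 unique molecular identifiers (UMIs), and the HFHC pool 21601 cells with 71981673 UMIs. After filtering, 23346 and 19625 cells were kept, with medians of 1322.5 and 1622 UMIs per cell. The 2 libraries shared 756 cell labels, against about 750 expected if labels were drawn at random. Cells were clustered without any of the iron genes and named from marker genes, so a class name stands for cells that resemble that type. Each of 13 classes held at least 50 cells in each library, among them 3069 and 504 KCs, 81 and 71 monocyte-derived macrophages (MoMFs), 360 and 538 monocytes, and 7084 and 12520 hepatocytes, where the first number is the WT library. The hepatocyte cells were shallow, with medians of 521 and 847 UMIs, and depth per cell was higher in the pool in every class. They made up 30.3% and 63.8% of kept cells. Their median mitochondrial share of UMIs was 1.31% and 0.383%, against 7.12% and 6.49% in KCs and 0.830% and 0.769% in neutrophils. Whether all of them were whole hepatocytes was not tested, which limits every hepatocyte value below. Levels are UMIs of a gene per 1000000 UMIs of that class and library (CPM). The classes carried their own markers, with all 10 KC markers summing to 20174 and 16844 CPM in KCs, 10 hepatocyte markers to 47694 and 40023 CPM in hepatocytes, and 9 endothelial markers to 28212 and 19972 CPM in endothelial cells. MoMFs also held KC markers, at 4329 and 2896 CPM, a list that includes Adgre1 and Cd68, which are markers of MoMFs as well. Clec4f alone had 247 and 91 UMIs in MoMFs, of 279983 and 615944 UMIs in all. The part of KC RNA in the MoMF values was not tested. Free RNA from broken cells is captured along with every cell, so B cells, which do not make Alb or Clec4f, are given as the background.

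**Figure D1:**
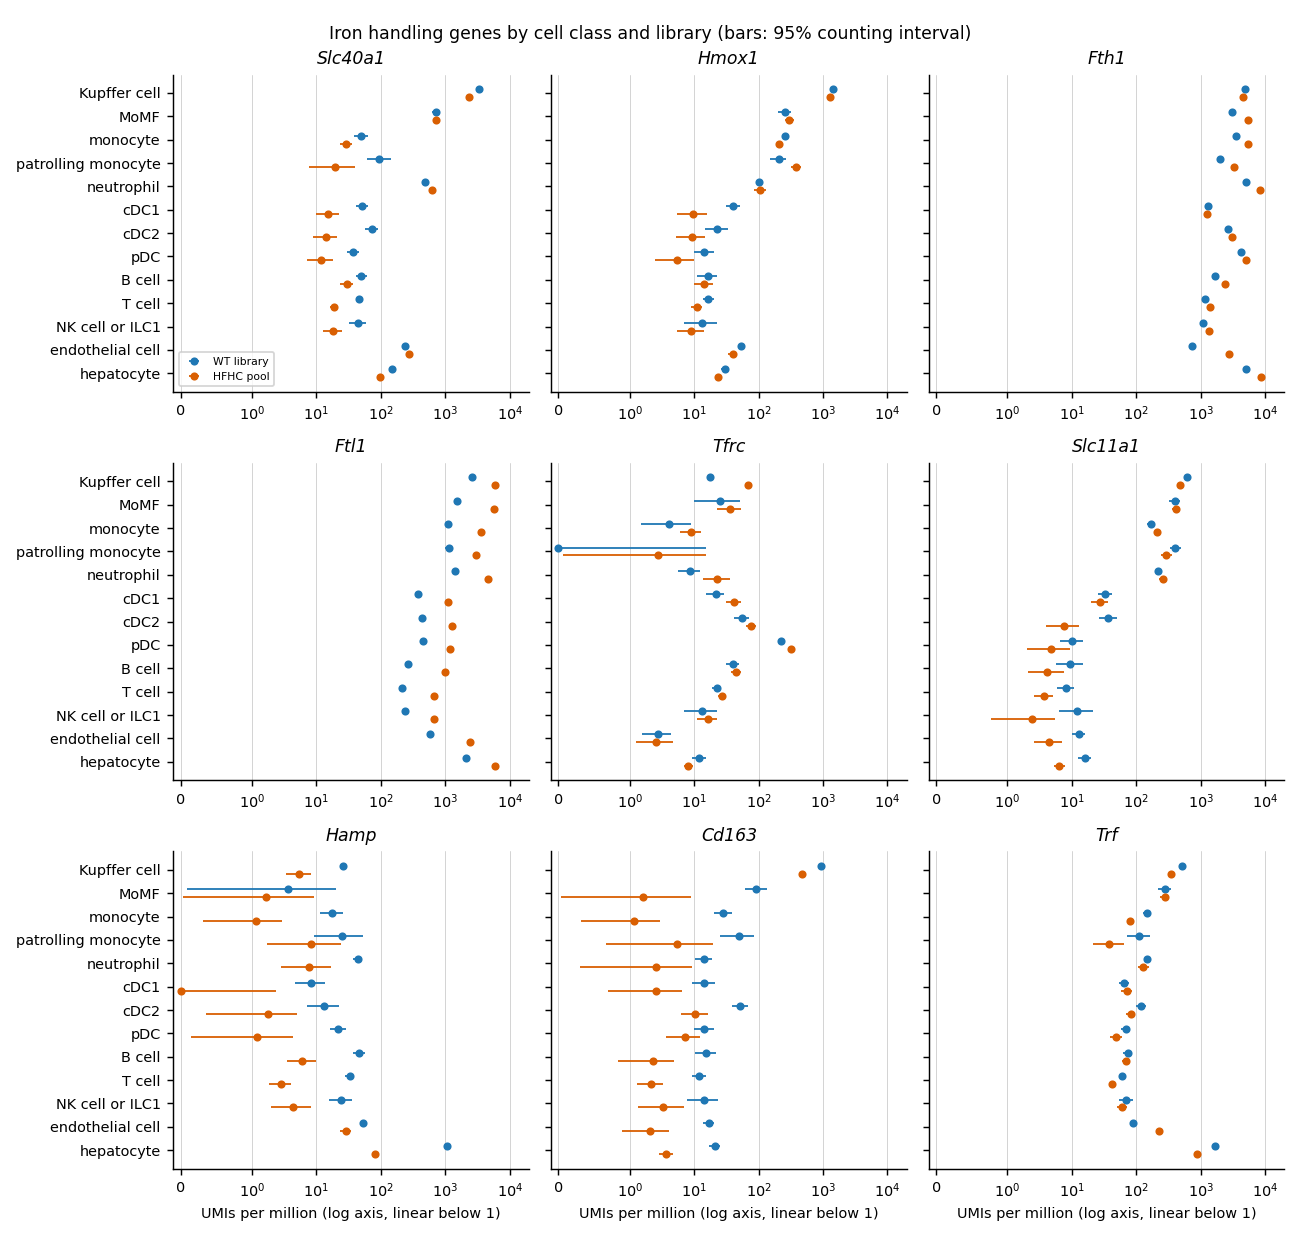
Level of each iron handling gene (x axis, CPM, log axis that is linear below 1) in 13 cell classes (y axis) in the WT library (blue) and the HFHC pool (orange), with bars for the 95% counting interval. Slc40a1, Hmox1, Cd163 and Slc11a1 were highest in KCs, Hamp and Trf in hepatocytes, and Tfrc in plasmacytoid dendritic cells (pDCs), while Ftl1 lay further right in the pool in every class.

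The exporter Slc40a1 (chr1:45908068-45926523, minus strand) was a KC transcript in both libraries. Its level in KCs was 3377 CPM (95% interval 3348 to 3407) in the WT library and 2345 CPM (2299 to 2392) in the pool, from 50146 and 9993 UMIs. MoMFs came next at 718 CPM (622 to 824) and 713 CPM (648 to 783). Neutrophils followed with 489 and 613 CPM and endothelial cells with 241 and 272 CPM, and in the pool the intervals of MoMFs and neutrophils overlapped. Monocytes held 49.4 and 29.0 CPM, no more than B cells, whose intervals were 40.7 to 60.8 and 23.4 to 36.9 CPM. Within a library, the log2 ratio of KCs over monocytes was thus 6.08 and 6.32, with the monocytes at background, and KCs exceeded MoMFs by 4.68-fold and 3.28-fold. Of all kept Slc40a1 UMIs, KCs held 82.9% in the WT library and 68.6% in the pool, where hepatocytes held 11.5% and endothelial cells 7.20%. These shares leave out cells of more than 4000 genes, described below. Those with KC markers held 2229 Slc40a1 UMIs in the WT library and 42947 in the pool. All kept cells held 60462 and 14570, so the lower KC share in the pool depends on that limit.

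Whether the lower levels outside KCs were free KC RNA was measured against Clec4f, a C-type lectin made in the liver by KCs. KCs had 557 Slc40a1 UMIs per 1000 Clec4f UMIs in the WT library and 571 in the pool. B cells of the WT library had 639 (95% interval 493 to 826) and T cells 626 (535 to 732), near the KC ratio, and in the pool 975 (705 to 1349) and 844 (687 to 1035). Neutrophils had 4440 (3967 to 4980) and 26611 (16656 to 45289), and endothelial cells 2568 (2326 to 2837) and 21408 (16073 to 29126). Slc40a1 per Clec4f in neutrophils and endothelial cells was thus 7.97 and 4.61 times the KC ratio in the WT library. In the pool these values were 46.6 and 37.5 times, and B cells, the background, stood at 1.71 times. Hepatocytes stood at 2.24 and 4.58 times, at a level of 147 and 98.6 CPM. The MoMFs of the WT library, at 1.46 times the KC ratio, held more Clec4f (882 CPM) than those of the pool (148 CPM, 8.46 times).

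Between the libraries, Slc40a1 in KCs was 0.53 lower in the pool on the log2 scale (log2 ratio -0.53, 95% interval -0.56 to -0.50). In KCs, 9245 genes had at least 100 UMIs in the 2 libraries together, and their median log2 ratio was 0.015. Of these, 5.12% were at least 2-fold higher and 3.27% at least 2-fold lower in the pool, and Slc40a1 was at percentile 12.5. The KC marker Clec4f had a log2 ratio of -0.56 in the same cells, so Slc40a1 per Clec4f was nearly equal in the KCs of both libraries (557 and 571 UMIs per 1000). After thinning, a Clec4f UMI was in 99.3% of KCs of the WT library and 80.9% of those of the pool. The part of this in the Slc40a1 and Cd163 values of KCs was not tested. In MoMFs the log2 ratio was -0.014 (-0.25 to 0.24), in endothelial cells 0.18 (0.058 to 0.29) and in neutrophils 0.33 (0.18 to 0.47). The classes near the background, T cells, cDC1s, cDC2s and pDCs, had log2 ratios from -2.33 to -1.29, B cells -0.75 (-1.20 to -0.32) and monocytes -0.77 (-1.22 to -0.31), and Clec4f was lower in the pool too, at 74.0 and 22.4 CPM in T cells. Endothelial cells and neutrophils had the most Slc40a1 per Clec4f in both libraries. Their log2 ratio was above 0 beyond counting error, while hepatocytes were at -0.58 (-0.70 to -0.45). Only 1 of the 2 clusters of each class was higher in the pool, A10 of the endothelial cells (253 and 333 CPM) and A3 of the neutrophils (499 and 698 CPM). The intervals overlapped in the others, A12 (220 and 199 CPM) and A18 (434 and 391 CPM).

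**Figure D2:**
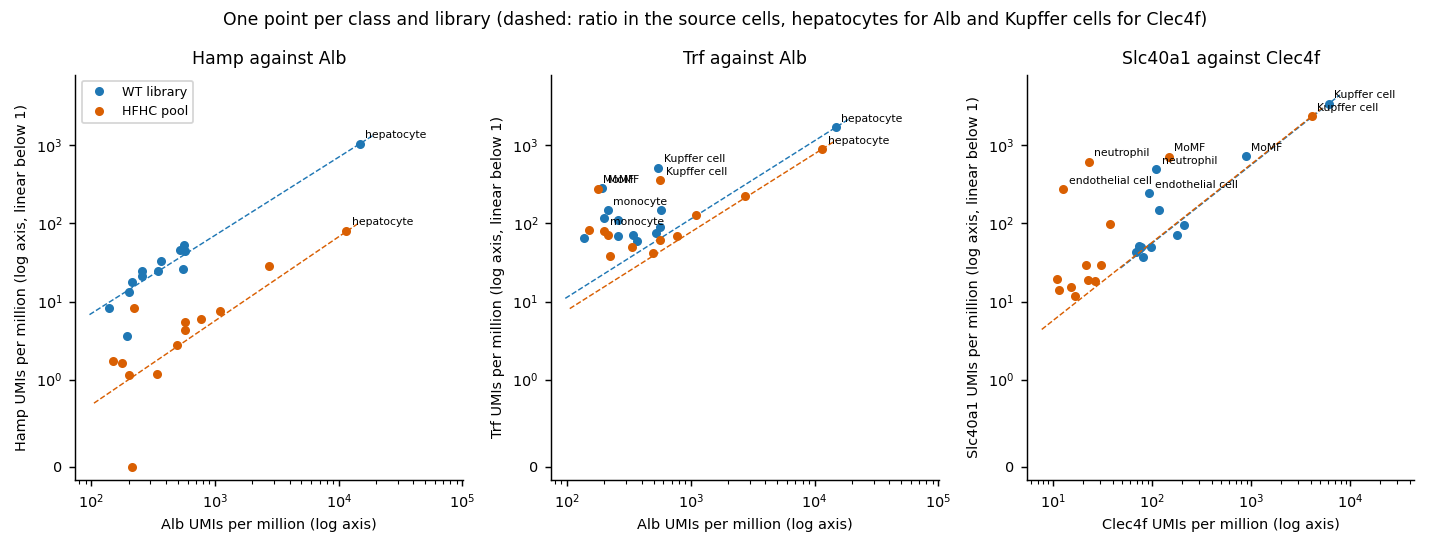
Level of Hamp (left) and Trf (middle) against Alb, and of Slc40a1 (right) against Clec4f, in CPM on log axes (linear below 1 on the y axis), with 1 point per class in the WT library (blue) and the HFHC pool (orange). Dashed lines carry the ratio in hepatocytes (left, middle) or in KCs (right). Points above a line hold more of the gene per UMI of Alb or Clec4f than those cells. Examples are Slc40a1 in neutrophils (489 and 613 CPM) and Trf in KCs (517 and 353 CPM). B cells, given as the background, also lay above some lines.

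Hmox1 (chr8:75093621-75100589, plus strand), the enzyme that degrades heme, was likewise highest in KCs, at 1435 CPM (1416 to 1455) in the WT library and 1283 CPM (1250 to 1318) in the pool. The log2 ratio was -0.16 (-0.20 to -0.12), percentile 33.5 of the genes compared, and it turned to 0.26 when cells of more than 4000 genes were kept and to 0.064 when classes were set from each cell's own markers. Hmox1 differed from Slc40a1 in the order of the other classes, since monocytes held 256 and 208 CPM, well over the 16.3 and 14.0 CPM of B cells. MoMFs held 257 and 302 CPM, and patrolling monocytes 205 and 385 CPM. Per 1000 Clec4f UMIs, MoMFs had 291 (221 to 380) and 2044 (1582 to 2656) Hmox1 UMIs, against 237 and 312 in KCs. The MoMFs of the WT library were thus near the KC ratio. The patrolling monocytes gave the highest log2 ratio of Hmox1, 0.89 (0.43 to 1.40), from only 50 and 140 UMIs. KCs exceeded monocytes by 5.60-fold and 6.15-fold and MoMFs by 5.50-fold and 4.23-fold.

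Cd163 (chr6:124304656-124330527, plus strand), the receptor that clears hemoglobin bound to haptoglobin, was the member most restricted to KCs. KCs held 947 CPM (932 to 963) in the WT library and 467 CPM (447 to 488) in the pool, and 87.8% and 92.1% of all kept Cd163 UMIs. MoMFs held 92.9 CPM from 26 UMIs in the WT library and 1.62 CPM (0.0411 to 9.05) from 1 UMI in the pool. Monocytes held 28.4 and 1.15 CPM, against 15.3 and 2.27 CPM in B cells. The log2 ratio in KCs was -1.02 (-1.09 to -0.95), at percentile 3.09 and just past the 2-fold line, where it did not stay with the large cells kept (-0.76), with classes from own markers (-0.80), without called doublets (-0.97) or with the iron genes used in clustering (-0.97). For thinning to 2000 UMIs, cells with fewer were left out. This left 2359 of 3069 and 413 of 504 KCs, and 170 of 1376 and 708 of 847 B cells. After thinning, a Cd163 UMI was found in 62.7% of KCs (60.7 to 64.7) in the WT library and 38.0% (33.3 to 42.9) in the pool. The B cell shares were 2.94% and 0.141%. The unthinned KC shares of 65.3% and 49.6% rest on cells of unequal depth, with a median of 4376 UMIs in the WT library and 8839 UMIs in the pool, where B cells had 1316.5 and 2634 UMIs.

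Transcripts of Slc11a1 (chr1:74375195-74386062, plus strand), the gene of the phagosomal metal transporter Nramp1, were shared by KCs, MoMFs, monocytes and neutrophils. Whether its protein works in these mice was not tested. KCs held 621 and 479 CPM, MoMFs 396 and 408 CPM, patrolling monocytes 406 and 294 CPM, neutrophils 217 and 261 CPM and monocytes 168 and 207 CPM, while B cells held 9.41 and 4.17 CPM. KCs and MoMFs of the pool had overlapping intervals (458 to 500 and 359 to 461). The log2 ratio was -0.37 (-0.44 to -0.31) in KCs, 0.032 (-0.29 to 0.38) in MoMFs and 0.30 (0.10 to 0.52) in monocytes. Of the monocyte clusters, M3 was higher in the pool (179 and 242 CPM), while the intervals of M5 overlapped (155 and 145 CPM). M3 held 168 of 360 monocytes in the WT library and 325 of 538 in the pool. A cluster's marker score is the mean log2 excess of a type's markers over the average of all clusters. M3 scored 2.91 for monocytes and 2.62 for MoMFs, and M5 scored 4.16 and 1.6, so M3 was nearly as close to MoMFs. KCs exceeded MoMFs by 1.55-fold in the WT library and 1.17-fold in the pool.

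The ferritins were abundant everywhere and differed most in how evenly they moved. Fth1 (chr19:9980598-9985098, plus strand), whose chain oxidizes the iron for storage, stood at 4809 CPM in KCs of the WT library and 4621 CPM in those of the pool, a log2 ratio of -0.058 (-0.08 to -0.035) that turned to 0.17 with a mean over cells and to 0.025 with the large cells kept. Its level was higher in the pool in 11 of 13 classes, the exceptions being KCs and cDC1s. Hepatocytes went from 5053 to 8766 CPM (log2 ratio 0.79), neutrophils from 5143 to 8319 CPM (0.69), MoMFs from 3079 to 5449 CPM (0.82) and monocytes from 3510 to 5416 CPM (0.63). Monocytes filled their clusters unequally, with 168 of 360 and 325 of 538 cells in M3, and the part of this in their Fth1 ratio was not tested. Endothelial cells were the only class past 2-fold, from 727 to 2773 CPM (1.93, 1.88 to 1.98), beside a background of 9.79% of genes at least 2-fold higher there. Their hepatocyte markers also differed, with all 10 of 10 detected and a sum of 1856 CPM in the WT library and 9210 CPM in the pool, and the part of this RNA in the Fth1 difference was not tested. KCs thus ranked below neutrophils and hepatocytes for Fth1 in the WT library, and below MoMFs, monocytes and pDCs as well in the pool.

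Ftl1 (chr7:45457944-45459884, minus strand), the chain that helps form the iron core, was at least 2-fold higher in the pool in all 13 classes, in 12 with no upper gene limit and in 10 with classes set from each cell's own markers. KCs held 2596 and 5838 CPM, MoMFs 1497 and 5725 CPM, hepatocytes 2060 and 5838 CPM, B cells 268 and 983 CPM and T cells 215 and 676 CPM. The log2 ratio ran from 1.17 (1.15 to 1.19) in KCs to 2.05 in endothelial cells, with a median of 1.56, and KCs had the smallest ratio. The share of all genes at least 2-fold higher in the pool was 5.12% in KCs, 6.71% in MoMFs, 3.19% in monocytes, 5.32% in patrolling monocytes, 8.46% in neutrophils, 3.58% in cDC1s, 3.49% in cDC2s, 2.83% in pDCs, 3.89% in B cells, 5.86% in T cells, 3.91% in natural killer (NK) cells or ILC1s, 9.79% in endothelial cells and 5.76% in hepatocytes. Among the 749 genes with enough UMIs in every class, 12 (1.60%) were at least 2-fold higher in the pool in all 13 and 0 (0%) were at least 2-fold lower in all. Besides Ftl1 these were Eef2, Eif5a, Gm42418, Gnb2, Ier2, Jun, Ppp1ca, Rpl14, Rplp1, Rps19 and Rpsa, and Gnb2 had the largest median log2 ratio of them, 3.72. They are named after their values were seen. The copy Ftl1-ps1 was higher in the pool in all 13 classes as well, by log2 ratios of 0.49 in KCs to 1.37 in MoMFs.

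**Figure D3:**
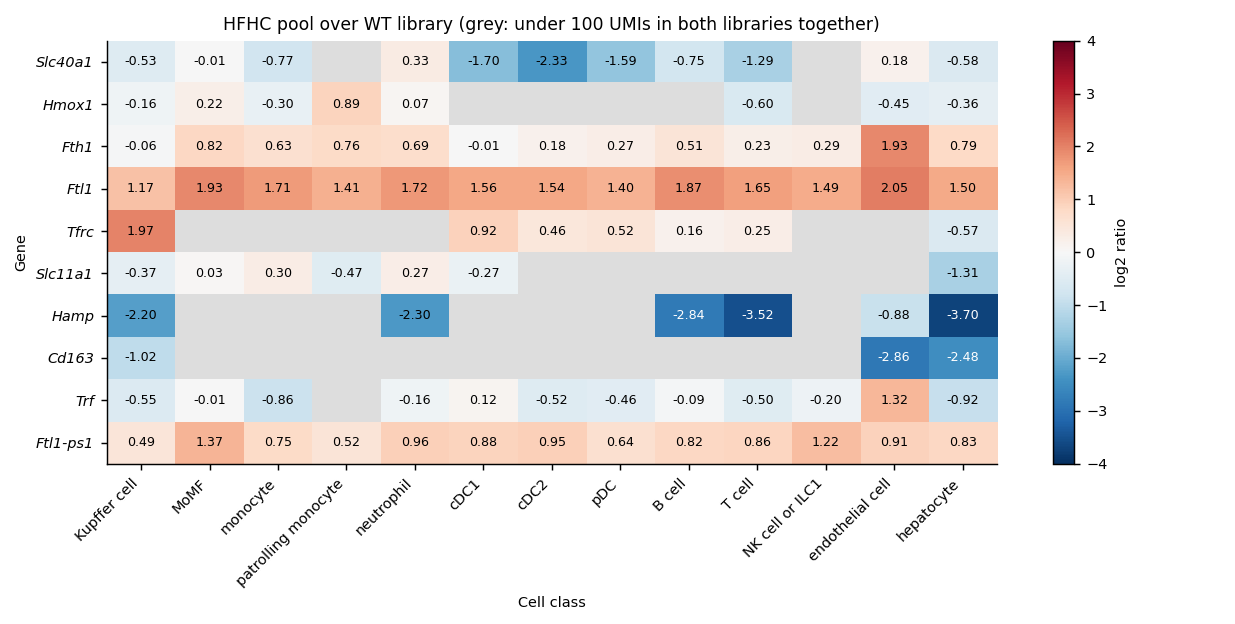
Ratio between the libraries on the log2 scale, HFHC pool over WT, for each iron handling gene and for Ftl1-ps1 (rows) in each class (columns), with red for higher in the pool, blue for lower and grey for fewer than 100 UMIs in the 2 libraries together. Ftl1 was between 1.17 and 2.05 in every column, Tfrc was at 1.97 in KCs, and Hamp was at -3.70 in hepatocytes.

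Tfrc (chr16:32608920-32632794, plus strand), the receptor that takes up transferrin-bound iron, was the member with the largest ratio toward the pool in KCs. Its level was 17.8 CPM (15.7 to 20.1) in the WT library and 69.7 CPM (62.0 to 78.1) in the pool, from 264 and 297 UMIs, a 3.92-fold ratio (log2 1.97, 1.73 to 2.22) at percentile 98.7. After thinning to 2000 UMIs, 3.09% of KCs (2.43 to 3.88) held a Tfrc UMI in the WT library and 10.7% (7.85 to 14.0) in the pool, and without thinning 7.10% and 27.2%. Thinned in the same way, monocytes stood at 0.304% and 1.71%, and B cells at 4.71% and 7.49%. The class with most Tfrc was the pDC, with 225 CPM (207 to 245) and 322 CPM (296 to 351), followed by cDC2s with 54.9 and 76.4 CPM. KCs were below pDCs, cDC2s and B cells in the WT library, and in the pool their interval overlapped that of cDC2s. In the other classes with enough UMIs the log2 ratio was 0.92 in cDC1s, 0.52 in pDCs, 0.46 in cDC2s, -0.57 in hepatocytes, 0.16 in B cells and 0.25 in T cells, and of these classes KCs alone were past 2-fold. In neutrophils, with only 29 and 18 UMIs, the log2 ratio was 1.46 (0.50 to 2.33), so a ratio past 2-fold there was not resolved. Endothelial cells held 2.71 and 2.60 CPM.

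Hepcidin had the largest ratio of any member among the values that reached 100 UMIs. Hamp (chr7:30942368-30944032, minus strand) stood at 1045 CPM (1018 to 1073) in hepatocytes of the WT library and 80.3 CPM (76.1 to 84.7) in those of the pool, from 5481 and 1369 UMIs. This is a log2 ratio of -3.70 (-3.79 to -3.62), at percentile 0.107 of 9371 genes, of which 7.53% were at least 2-fold lower and 5.76% at least 2-fold higher. Every hepatocyte cluster with at least 50 cells in both libraries had the same direction, at 918 and 71.9 CPM in A0, 1050 and 61.1 CPM in A1, 2048 and 112 CPM in A4, 1165 and 37.9 CPM in A5, and 940 and 82.4 CPM in A6. The remaining cluster, A8, was large enough only in the pool and held 154 CPM. Its marker score was 3.49 for hepatocytes and 2.93 for erythroid cells, and the part of red cell RNA in A8 was not tested. After thinning, 50.2% of the 323 hepatocytes deep enough in the WT library and 9.66% of 2247 in the pool held a Hamp UMI, and without thinning 33.6% and 7.25%. The thinned shares in B cells, given as the background, were 11.2% and 0.565%, over 170 and 708 cells. Hamp2 was 50.3 and 20.9 CPM, a log2 ratio of -1.27 (-1.50 to -1.03). Alb, the main hepatocyte product, was at 14866 and 11551 CPM.

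Hamp per Alb in lymphocytes and neutrophils was at 0.808 to 1.27 times the hepatocyte ratio, both ends being T cells. Hepatocytes had 70.3 Hamp UMIs per 1000 Alb UMIs in the WT library and 6.96 in the pool. B cells had 87.6 (70.0 to 109) and 7.88 (4.50 to 12.8), T cells 89.1 (76.3 to 104) and 5.62 (3.67 to 8.24), and neutrophils 76.4 (64.3 to 90.3) and 6.98 (2.55 to 15.2). Endothelial cells stood above hepatocytes in both libraries, at 93.5 (82.9 to 105) and 10.4 (8.52 to 12.5), and T cells stood nearly as high in the WT library. Patrolling monocytes of the pool stood at 37.0 (7.48 to 112) from 3 Hamp UMIs. The difference between the libraries was thus also present in the small amounts of Hamp counted in lymphocytes and neutrophils. KCs had 47.0 (42.3 to 52.1) and 9.51 (6.02 to 14.3), and their Hamp level of 25.7 and 5.40 CPM was at or under that of B cells, 45.5 and 6.06 CPM. Hamp in KCs, with a log2 ratio of -2.20, was thus not above the B cell level. The part of hepatocyte RNA in it was not tested.

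Transferrin (Trf, chr9:103204001-103230444, minus strand) was not held by hepatocytes alone. Its level in hepatocytes was 1689 CPM (1654 to 1724) in the WT library and 893 CPM (879 to 908) in the pool, a log2 ratio of -0.92 (-0.96 to -0.88). The libraries filled the hepatocyte clusters unequally, and within clusters Trf was at 2003 and 1245 CPM in A0, 1462 and 996 CPM in A1, 1250 and 668 CPM in A4, 1276 and 1013 CPM in A5, and 1243 and 785 CPM in A6. The difference was thus smaller within A0, A1, A5 and A6 than over all hepatocytes, and A8, almost all from the pool, held 686 CPM there. KCs held 517 CPM (506 to 529) and 353 CPM (336 to 371), and MoMFs 279 and 278 CPM, against 74.3 and 69.7 CPM in B cells. Per 1000 Alb UMIs, hepatocytes had 114 and 77.4 Trf UMIs, whereas KCs had 945 (916 to 975) and 622 (583 to 664), 8.32 and 8.04 times as many. MoMFs had 12.7 and 20.3 times and monocytes 6.02 and 5.19 times the hepatocyte ratio, while B cells had 1.26 and 1.17 times. The cDC2s had 5.21 and 7.11 times, cDC1s 4.15 and 4.32 times, and patrolling monocytes 3.77 and 2.23 times. Further down, pDCs had 2.33 and 1.89 times and neutrophils 2.24 and 1.52 times. Trf per Alb was thus above the hepatocyte ratio in KCs, MoMFs and monocytes, and in these other classes too. Monocytes held only 146 and 80.5 CPM of Trf. In endothelial cells Trf was 89.4 and 223 CPM (log2 ratio 1.32, 1.16 to 1.48), but at 159 and 81.8 per 1000 Alb UMIs, close to the hepatocyte ratio in the pool. KCs held 38.5% of kept Trf UMIs in the WT library and 7.73% in the pool, where they made up 13.1% and 2.57% of kept cells. Cells of more than 4000 genes with KC markers are left out of these shares. They held 326 and 5170 Trf UMIs, against 7682 and 1505 in the KCs kept.

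Taking the members by class, in KCs 2 of 9 (Ftl1 and Tfrc) were at least 2-fold higher and 2 of 9 (Cd163 and Hamp) at least 2-fold lower in the pool, beside the 5.12% and 3.27% of all genes, and Hamp there was not above the B cell level. In hepatocytes 1 of 9 (Ftl1) was higher and 3 of 9 (Hamp, Cd163 and Slc11a1) lower, beside 5.76% and 7.53% of all genes, of which Cd163 (20.8 and 3.70 CPM) and Slc11a1 (15.8 and 6.40 CPM) were within a few CPM of B cells. The lower counts fell to 1 in both classes with classes from own markers or cells thinned to 1000 UMIs, and in KCs also with the large cells kept, without called doublets, with the iron genes used in clustering and without the KC cluster M4. Within the WT library, 7 of 9 members were at least 2-fold higher in KCs than in monocytes (all but Fth1 and Hamp, with Tfrc resting on 6 monocyte UMIs), beside 13.3% of 8949 genes. In the pool these were 6 (Slc40a1, Hmox1, Cd163, Tfrc, Slc11a1 and Trf), beside 11.8% of 7345 genes, and Ftl1 was at 1.61-fold. Against MoMFs, Slc40a1, Hmox1 and Cd163 were at least 2-fold higher in KCs in both libraries, beside 7.82% of 8688 genes and 6.51% of 6010 genes, and so was Hamp in the WT library from 1 MoMF UMI.

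**Figure D4:**
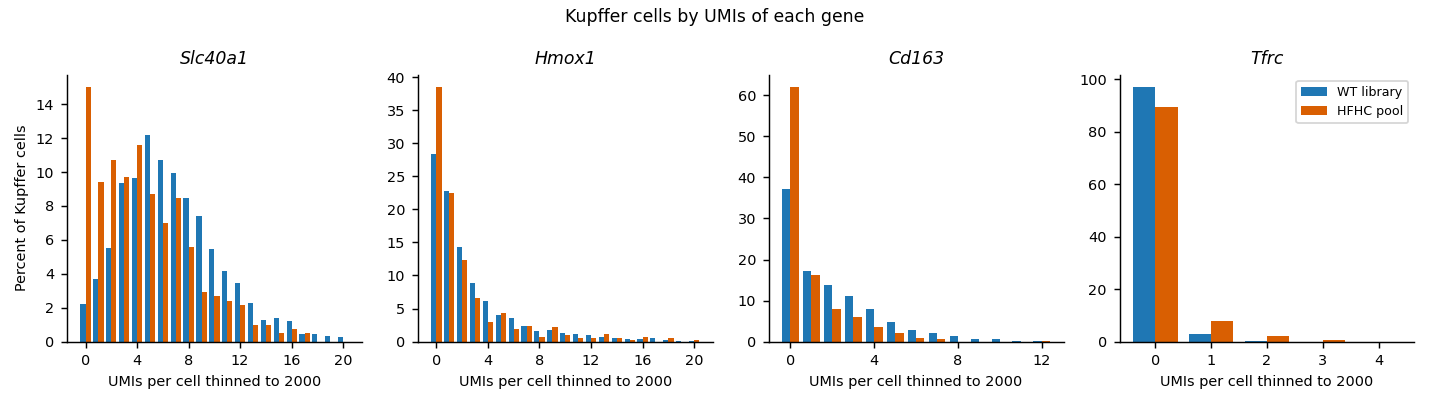
Percent of KCs (y axis) by the number of UMIs of Slc40a1, Hmox1, Cd163 and Tfrc (x axis), for 2359 cells of the WT library (blue) and 413 of the HFHC pool (orange). Cells were thinned to 2000 UMIs, and shallower cells were left out. A Slc40a1 UMI was found in 97.8% and 85.0% of the cells, and the cells without a Cd163 UMI were more frequent in the pool.

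KCs differed among themselves. Of the 5 KC clusters, M0, M1 and M4 held at least 50 cells in both libraries. In the WT library Slc40a1 ranged from 2348 CPM in M9 to 3558 CPM in M0, Hmox1 from 1029 CPM in M8 to 1745 CPM in M9, Cd163 from 715 CPM in M9 to 998 CPM in M0, and Fth1 from 2202 CPM in M8 to 6209 CPM in M9. M9 held more of the scavenger receptor gene Marco, 1241 CPM against 541 CPM in M0. In the pool, M0 and M1 held 2629 and 2695 CPM of Slc40a1, but M4, with 105 cells, held 978 CPM, with 619 CPM of Hmox1, 272 CPM of Cd163 and 25.9 CPM of Tfrc. M4 of the pool also had less Clec4f (1547 CPM against 4471 CPM in M0) and more Alb (2716 CPM against 191 CPM), and the part of hepatocyte RNA in its lower values was not tested. A doublet caller (Scrublet) marked 234 of the 301 M4 cells in the WT library and 33 of the 105 in the pool. Without M4, an alternative chosen after seeing the data, Slc40a1 in KCs was 3418 and 2577 CPM (log2 ratio -0.41), Hmox1 had a log2 ratio of -0.052, and Cd163, at 953 and 501 CPM, had a log2 ratio of -0.93 and was no longer past 2-fold. Tfrc was higher in the pool within each of the 3 shared clusters, at 14.7 to 19.6 CPM (interval) and 76.8 CPM in M0, 25.8 and 55.7 CPM in M1, and 14.3 and 25.9 CPM in M4, where the intervals of M1 and M4 overlapped between the libraries.

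Timd4, a phagocytic receptor of long-resident KCs, split the cells further. In the pool, thinned KCs with a Timd4 UMI (233 cells) held 2781 CPM of Slc40a1, 1382 CPM of Hmox1, 639 CPM of Cd163 and 88.0 CPM of Tfrc, and those without (180 cells) held 1617, 867, 200 and 44.4 CPM in the same order. The Tfrc values rest on only 41 and 16 UMIs. In the WT library the 1762 cells with and the 597 without a Timd4 UMI lay closer, at 3408 and 3209 CPM of Slc40a1 and 966 and 948 CPM of Cd163. Other macrophage genes differed along with them in the pool, where the cells with a Timd4 UMI held 5230 CPM of Clec4f and 17.2 CPM of Gpnmb, a gene of lipid-laden macrophages, and those without held 2386 and 294 CPM. In the WT library Clec4f was at 6243 and 6009 CPM, and Gpnmb was counted in 2 and 0 UMIs. The part of other macrophages and of cluster M4 among the cells without a Timd4 UMI was not tested. Fth1 and Ftl1 differed little between these cells, at 4766 and 4286 CPM and 5869 and 5469 CPM in the pool. Cells without a UMI include cells in which it was missed.

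From cell to cell, Slc40a1 and Hmox1 had the highest rank correlation of any pair of members in KCs, with Spearman's rho of 0.30 over 2359 cells of the WT library and 0.45 over 413 of the pool. In the pool Slc40a1 also went with Clec4f (0.40), Timd4 (0.32) and Cd163 (0.24), and Hmox1 with Ftl1 (0.33). The same pairs in the WT library stood at 0.041, 0.051, 0.11 and 0.15. The part of cluster M4 in the pool values was not tested. In the WT library rho was 0.20 for Fth1 and Ftl1 and 0.16 for Hmox1 and Fth1. Each value describes cells of a single library, which share its free RNA. Hmox1 was the most uneven member over KCs, with a variance of 4.89 and 5.58 times its mean after thinning, compared with 2.20 and 3.08 for Slc40a1 and 1.06 and 1.08 for Slc11a1.

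The filter on cells of more than 4000 genes bears on these values. It removed 67 cells of the WT library and 812 of the pool that had an acceptable mitochondrial share, of which 48 and 637 held at least 10 UMIs of Clec4f, Vsig4, Timd4 and Clec1b together. The shares of a gene's UMIs by class given above leave these large cells out. The 637 cells of the pool outnumber the 504 KCs kept there. They held 2799 CPM of Slc40a1 (2773 to 2826), 1733 CPM of Hmox1, 540 CPM of Cd163, 75.6 to 84.6 CPM of Tfrc (interval), 4907 CPM of Fth1 and 5911 CPM of Ftl1. The 48 cells of the WT library held 2684 CPM of Slc40a1 (2574 to 2798), 1547 CPM of Hmox1, 751 CPM of Cd163 and 25.3 CPM of Tfrc (15.7 to 38.7). Among these large cells Slc40a1 and Hmox1 were thus not lower in the pool, while Cd163 was lower and Tfrc higher. With all cells above the limit kept and clustered again, the pool had 986 KCs with 2836 CPM of Slc40a1 and 1738 CPM of Hmox1, and the log2 ratio over the WT library was -0.25 for Slc40a1, 0.26 for Hmox1, -0.76 for Cd163 and 2.16 for Tfrc.

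The wider iron pathway was described with 96 genes in 7 lists, members included, of which 94 were found. In KCs 76 had enough UMIs, and 2 (Ftl1 and Tfrc) were at least 2-fold higher and 4 (Cd163, Hamp, Bmp2 and Fdxr) at least 2-fold lower in the pool, beside 5.12% and 3.27% of all genes, and the median log2 ratio was -0.076 beside 0.015. Bmp2, a BMP ligand, stood at 9.97 and 3.99 CPM in KCs and at 2217 and 1359 CPM in endothelial cells. KCs also held endothelial markers, at 1095 and 933 CPM, and the part of endothelial RNA in their Bmp2 was not tested. Fdxr, which passes electrons for iron-sulfur cluster assembly, stood at 13.3 and 5.40 CPM. The leading genes of the other lists lay within 2-fold in KCs, as Hfe, a partner of the transferrin receptors in iron sensing (321 and 270 CPM), Nfe2l2, the oxidative stress regulator (275 and 260 CPM), and Cisd2, an iron-sulfur protein (153 and 154 CPM). Ncoa4, which delivers ferritin for breakdown, was at 169 and 312 CPM in KCs (log2 ratio 0.88) and is named after its value was seen.

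**Figure D5:**
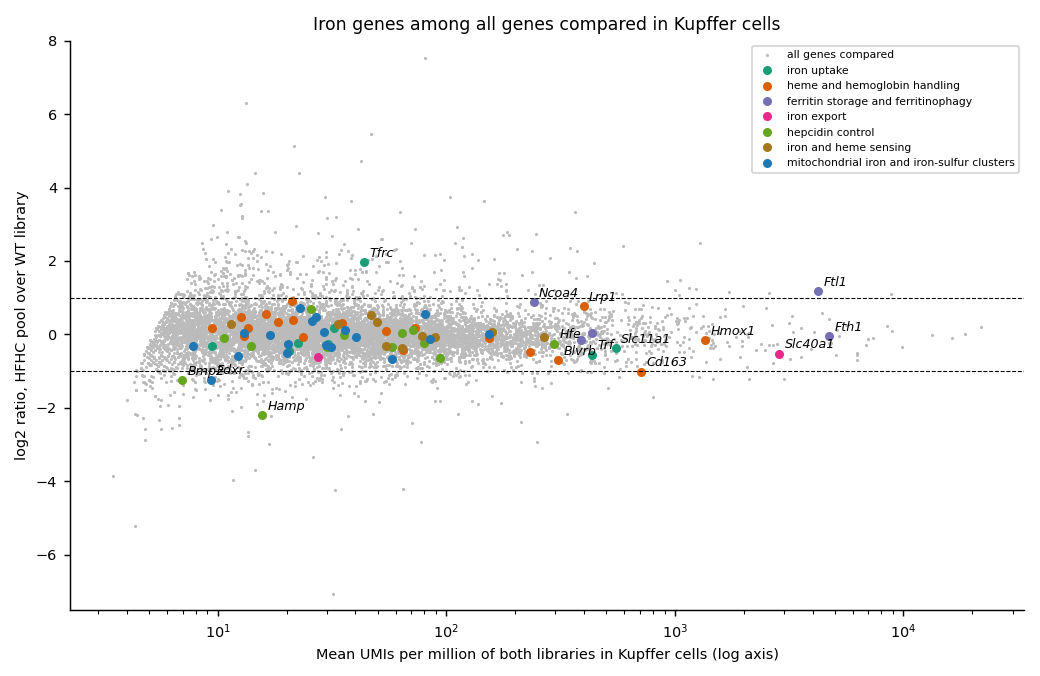
Ratio between the libraries on the log2 scale, HFHC pool over WT (y axis), against the mean level of both libraries (x axis, CPM, log axis) in KCs, for the 9245 genes compared (grey) and the iron lists (colours), with dashed lines at 2-fold. Most iron genes lay between the lines, with Tfrc (1.97) and Ftl1 (1.17) above and Cd163 (-1.02), Bmp2 (-1.25), Fdxr (-1.24) and Hamp (-2.20) below.

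In hepatocytes 79 of the 96 genes had enough UMIs, with 2 at least 2-fold higher and 8 lower, beside 5.76% and 7.53% of all genes, and a median log2 ratio of -0.10. Of the 15 genes of hepcidin control measured there, 4 were at least 2-fold lower and 0 at least 2-fold higher, beside the same 7.53% and 5.76%, and the median log2 ratio was -0.30 beside 0.08 for all genes. The 4 were Hamp, Hamp2, Tfr2, the hepatocyte sensor of transferrin (57.6 and 11.8 CPM, log2 ratio -2.29), and Tmprss6, the protease that holds hepcidin down (54.5 and 14.8 CPM, -1.88). Hfe2, which encodes the BMP co-receptor hemojuvelin, was at 42.7 and 47.1 CPM (0.14). In endothelial cells the ligands Bmp2 (log2 ratio -0.71) and Bmp6 (160 and 96.4 CPM, -0.73) were both lower in the pool but within 2-fold. The plasma ferroxidase ceruloplasmin (Cp) was at 301 and 129 CPM in hepatocytes (-1.22), and the hepatocyte transcripts Hpx (395 and 307 CPM), Cpox (334 and 460 CPM), Aco1 (239 and 233 CPM), Glrx5 (452 and 329 CPM) and Hspa9 (432 and 618 CPM), for heme binding, heme synthesis, iron sensing and iron-sulfur cluster assembly, were within 2-fold. Tfr2, Tmprss6, Hfe2, Bmp6 and Hamp2 are named after their values were seen. In endothelial cells, Slc39a8, a metal importer (293 and 233 CPM), Epas1, an oxygen-responsive transcription factor (546 and 422 CPM), and Slc25a37, a mitochondrial iron importer (243 and 129 CPM), were lower but also within 2-fold. Of 73 iron genes measured in endothelial cells, 11 were at least 2-fold higher and 2 lower, beside 9.79% and 4.73% of all genes, and the higher ones included Hp, Hpx and Trf, products of hepatocytes, whose Alb was at 562 and 2725 CPM in these cells.

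Red cell RNA and dissociation genes also differed between the libraries, though not in the same way in every class. The 7 erythroid markers summed to 82.0 CPM in KCs of the WT library and 36.6 CPM in the pool, with 5 of 7 detected in each. Of the 5 with enough UMIs, 3 (Hba-a2, Hbb-bs and Hbb-bt) were at least 2-fold lower in the pool, beside 3.27% of all genes. In pDCs, the class with most Tfrc, the sum was 8.44 and 210 CPM, and its part in their Tfrc values was not tested. In hepatocytes the sum was 429 and 270 CPM, led by Alas2 with 251 and 190 CPM. The part of red cell RNA in the hepatocyte sum was not tested. All 20 of 20 dissociation and stress genes were detected in KCs, with sums of 5266 and 10961 CPM. Of these genes 13 were at least 2-fold higher in the pool, beside 5.12% of all genes. The median log2 ratio of the 20 was 1.33, beside 0.015 for all genes. The part of the dissociation and stress genes in the KC values of Hmox1, Ftl1 and Tfrc was not tested. The same sum was higher in the pool in the other classes too, from 8251 to 17245 CPM in MoMFs, 5299 to 12843 CPM in monocytes, 18088 to 29748 CPM in neutrophils, 4674 to 11781 CPM in B cells and 3420 to 10211 CPM in endothelial cells, except in hepatocytes, where it was 2097 and 2020 CPM, although 7 of the 18 genes measured there were at least 2-fold higher and 1 lower, beside 5.76% and 7.53% of all genes. The part of these genes in the Fth1 and Ftl1 values of any class was not tested.

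The genes whose profile over the 26 class-by-library values was most like a member's were sought among 10732 genes, by Pearson's r of log2(CPM + 10), 10 CPM being added to each level. For Cd163 they were Folr2 (r = 0.97), Fcna (0.97) and Timd4 (0.95). For Hmox1 they were Adgre1 (0.92), Slc11a1 (0.92) and Spic (0.90), for Slc11a1 Fcgr4 (0.97), Pilrb1 (0.97) and Pilra (0.95), and for Slc40a1 Ptgs1 (0.88), Il18bp (0.87) and Wdfy3 (0.85). Hamp was most like Selenbp2 (0.99), Mup7 (0.98) and Mup1 (0.97), and Trf like Rgl3 (0.92), Retsat (0.91) and Hebp1 (0.91). Ftl1 was most like its copy Ftl1-ps1 (0.96), Plin2 (0.88) and Znhit1 (0.87), and Fth1 like Cib2 (0.84), Litaf (0.81) and Gabarap (0.80). Tfrc, the pDC-led member, was most like Slc27a1 (0.90), Rnf122 (0.86) and Tmem221 (0.85). The profiles share libraries, depth and free RNA, so r is a description.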

How the data were processed

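Liver cells were captured on BD Rhapsody cartridges, in 2 whole transcriptome libraries of mouse. Per the file headers, the deposited counts are UMIs per gene and cell, corrected for sequencing errors (RSEC), made by the authors with the BD Rhapsody WTA Analysis Pipeline 1.10.1 on GRCm38 with GENCODE M19 gene models. The WT library is matched to its sample by elimination, since the header of its table names the library APAP0h. The sample of antibody tags was not used here. No per-sample column was left unused.

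Cells with 200 to 4000 genes and at most 25% mitochondrial UMIs were kept, after the study's methods, and clustered in Seurat 5.3.0 (R 4.3.3) with SCTransform on 4000 variable genes, reciprocal PCA integration, 30 components and a resolution of 0.8. Monocytes and macrophages were clustered again at 0.5. No gene of the iron lists entered the clustering. Of 40 clusters, 10 were unnamed or mixed and were left out. Doublets were kept, and removed as an alternative with Scrublet (scanpy 1.11.5). UMIs were summed by class and library, and log2 ratios were taken after adding 1 UMI to each count, for genes that reached 100 UMIs when the libraries were added. Levels and ratios carry exact 95% intervals (Poisson, conditional binomial), and shares of cells exact Clopper-Pearson intervals, which cover counting error only. With 1 library per group there was no test. The ratio script was tested on simulated counts with known changes.

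The members and lists were chosen with earlier results of these data known. Named were the 9 members, of each further iron list the genes past 2-fold in KCs and the highest gene in KCs, hepatocytes or endothelial cells, and for each member the 3 most similar genes with at least 500 UMIs. Other genes are named where the text says so, or as markers.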

Additional observations from a re-analysis of the deposited data

Results flagged for a closer look

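Some iron handling genes had ratios of opposite sign in different classes, each beyond its counting error. None of these differences between classes was tested, since each class has 1 library per group. The log2 ratio of the HFHC pool to the WT library was 0.33 in neutrophils and -2.33 in cDC2s for Slc40a1, where cDC2s, at 71.9 and 13.9 CPM, had 406 (307 to 533) and 1200 (635 to 2290) Slc40a1 UMIs per 1000 Clec4f UMIs, against 557 and 571 in KCs, and no more than the B cells in CPM in the pool. For Hmox1 it was 0.89 in patrolling monocytes and -0.60 in T cells, whose 16.7 and 11.1 CPM lay near the B cell background of 16.3 and 14.0 CPM. For Fth1 it was 1.93 in endothelial cells, where hepatocyte markers went from 1856 to 9210 CPM, and -0.058 in KCs, where it turned sign under 2 alternatives. For Tfrc it was 1.97 in KCs and -0.57 in hepatocytes. For Slc11a1 it was 0.30 in monocytes, where 1 of 2 clusters was higher in the pool, and -1.31 in hepatocytes, whose 15.8 and 6.40 CPM were within a few CPM of the 9.41 and 4.17 CPM in B cells. For Trf it was 1.32 in endothelial cells, whose Alb went from 562 to 2725 CPM, and -0.92 in hepatocytes.

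Cells of more than 4000 genes lie outside the comparisons of classes, and 48 of 67 in the WT library and 637 of 812 in the pool held at least 10 UMIs of the KC markers Clec4f, Vsig4, Timd4 and Clec1b. In these 48 and 637 cells Slc40a1 was at 2684 and 2799 CPM.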

How the results depend on the processing

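Under 10 alternatives, no log2 ratio of 2-fold or more changed its sign, among the 9 members in KCs and the 6 followed in hepatocytes. Tfrc in KCs ran from 1.58 to 2.42, Ftl1 in KCs from 1.14 to 1.21, Hamp in hepatocytes from -3.87 to -3.35 and Slc40a1 in KCs from -0.60 to -0.25. Hmox1 (up to 0.26) and Fth1 (up to 0.17) in KCs, both within 2-fold, turned sign under 2 alternatives each. Ftl1 was at least 2-fold higher in 13 classes, except 12 with no upper gene limit and 10 with classes from own markers. In KCs the iron list genes at least 2-fold higher were 4 with a minimum of 20 UMIs, 6 with no minimum, 4 with no upper gene limit and 1 with cells thinned to 1000 UMIs, and 1 was lower after that thinning, where fewer genes reach 100 UMIs. After the same thinning 1 member was higher in KCs, 1 lower in KCs and 1 lower in hepatocytes. The members lower in KCs were also 1 with no upper gene limit, with doublets removed, with iron genes used in clustering, with classes from own markers and without M4. With classes from own markers, 1 member was lower in hepatocytes and 6 were higher in KCs than in MoMFs of the pool. The share of all genes past 2-fold was not counted under any of these alternatives, so the counts have no background there. The cause of these shifts was not tested. Without integration only 3 MoMFs were found in the pool. No paired analysis was possible because each group has 1 library. Depth limits the hepatocytes most, with 521 and 847 UMIs per cell.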
